A study of Drosophila melanogaster with 6 samples.

Results

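The transcriptome of wild type pharate adult males was described from 2 of the 6 libraries of the series, the 2 that carry the wild type label, and all 15115 genes listed for them were kept. Pharate adults are flies that have completed most of metamorphosis and still lie inside the pupal case. Each library was made from total RNA of 30 whole males of genotype yw, taken 96 to 108 h after puparium formation, with 100 ng of RNA as the input. The series as a whole was made to ask what lysine 27 of the replication-independent histone H3.3 does in gene regulation, and its other 4 libraries carry substitutions of that lysine. The strain is named for the yellow and white genes, whose alleles the labels do not give, and no other allele or treatment is named for these animals. Nothing in the labels states that the replicates came from separate cultures, so the spread between them may be partly technical.

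At the end of metamorphosis the adult body is assembled but not yet in use. Flight muscles have formed and fill with contractile proteins and mitochondria, the epidermis has secreted most of the adult cuticle and prepares to tan it, the eyes gain their visual pigments, and the male germ line and reproductive glands mature. Pulses of the steroid ecdysone drive these steps through a cascade of nuclear receptors, and eclosion follows once the hormone has declined.

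Levels are given in RPKM, reads per kilobase of gene with the reads on genes scaled to the same total in each library, which allows genes of unequal length to be compared. The RPKM values proved to be exact multiples of 1 read, so that whole reads could be recovered, 1591441 on genes in replicate 1 and 2118264 in replicate 2. This is a shallow depth. On a gene of 1 kb, 3 reads corresponded to 1.89 RPKM in replicate 1 and 1.42 RPKM in replicate 2, and a gene listed at 0 may have been expressed below that. A mean of at least 1 RPKM over both libraries was reached by 11251 genes, 74.4% of those listed, of which 5471 reached 10 RPKM, 713 reached 100 RPKM and 64 reached 1000 RPKM. No read was assigned to 2234 genes in either library. Reads in 1 library only were found for 418 genes in replicate 1 and 674 genes in replicate 2, and no such gene had more than 38 reads.

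A small set of genes held much of the RNA. The 10 genes with the most reads took 10.9% of reads in replicate 1 and 11.0% in replicate 2, the top 100 took 34.9% and 34.0%, and the top 1000 took 69.7% and 69.0%. The replicates were close in each of these shares.

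The protein-coding genes with the highest mean RPKM belonged mostly to muscle, mitochondria and cuticle, along with genes known only by a number. CG17298, on arm 3R, stood first with 23282 RPKM in replicate 1 and 10394 RPKM in replicate 2. CG13067, on 3L, followed with 12229 and 8795 RPKM, and CG7214, on 2L, was listed at 7419 and 10275 RPKM. These 3 genes have only a number for a name in the annotation used. They changed order between the libraries, since CG7214 stood above CG13067 in replicate 2 and below it in replicate 1.

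Muscle genes came next and varied less. Mlc2, the regulatory light chain of muscle myosin, was listed at 7424 and 6973 RPKM. Among the actins, Act57B had 6118 and 6155 RPKM, Act87E had 5411 and 5811 RPKM, Act88F, the actin of the indirect flight muscle, had 4732 and 4359 RPKM, and Act79B had 3467 and 3012 RPKM. Mhc, the single gene for muscle myosin heavy chain, had 2000 and 1981 RPKM, up, which encodes troponin T, had 2046 and 1900 RPKM, and Mp20, a muscle protein of the calponin family, had 2165 and 1704 RPKM. TpnC73F, a troponin C gene, had 1702 and 1782 RPKM.

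Energy metabolism was represented by Cyt-c-p, the cytochrome c of somatic cells, at 3807 and 2830 RPKM, and by sesB, the mitochondrial ADP/ATP carrier, at 3335 and 2761 RPKM. The respiratory chain and ATP synthase genes CG7630 (COX7B), CG1746 (ATPsynC) and CG4692 (ATPsynF) had means of 2621, 2508 and 1999 RPKM. All 5 genes were lower in replicate 2.

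Cuticle genes in the top 30 were Cpr64Aa, with 5282 and 7282 RPKM, Cpr49Ae, with 2710 and 4601 RPKM, and Acp65Aa, an adult cuticle protein, with 1251 and 2202 RPKM. Each was higher in replicate 2. CG13051, CG13674, CG6503, CG13678, CG34205, CG42323 and CG14961 lay between 2503 and 4015 RPKM on average. The ribosomal protein gene RpL41 had 2058 and 1958 RPKM. The remaining members of the top 30 belong to the male reproductive tract: PebIII (EbpIII), an ejaculatory bulb protein, was listed at 2363 and 1708 RPKM, and Mst57Db, a gene of the accessory gland, at 2666 and 1145 RPKM. Together the 30 genes held 15.3% of reads in replicate 1 and 15.0% in replicate 2. Their gene lengths were short, under 1000 bases for 16 of 30.

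**Figure D1:**
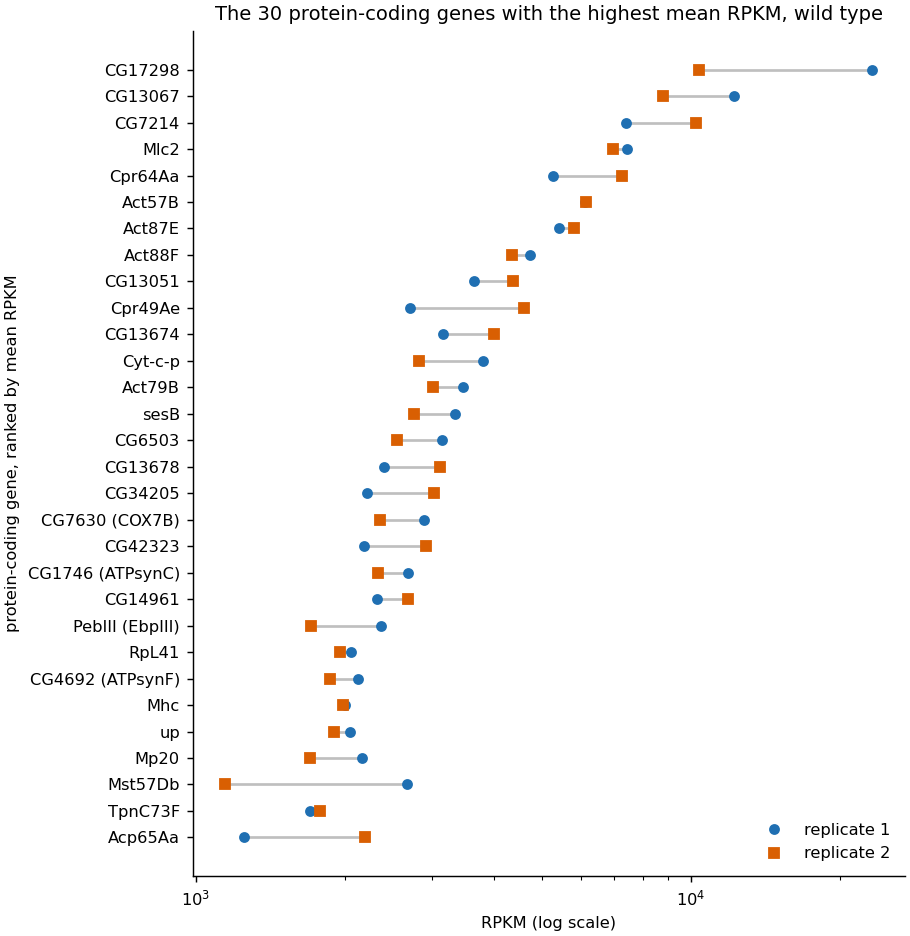
RPKM (log axis) of the 30 protein-coding genes with the highest mean, ranked from top to bottom, with 1 point for each wild type library and a grey line between them. The muscle genes Act57B and Mhc have nearly the same value in both libraries, while CG17298 lies at 23282 in replicate 1 and 10394 in replicate 2.

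Ranked by reads rather than by RPKM, long genes of the contractile apparatus moved up, and 15 of the 30 genes were shared with the ranking by RPKM. Mhc held 1.76% of reads in replicate 1 and 1.74% in replicate 2, more than any other gene. bt, which encodes the elastic muscle protein projectin, took 0.794% and 0.996% at only 288 and 361 RPKM. Msp-300, a giant nesprin that links muscle nuclei to the cytoskeleton, took 0.795% and 0.820% at 114 and 117 RPKM, and sls, the fly relative of titin, took 0.566% and 0.657% at 96.0 and 111 RPKM.

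Among genes of non-coding RNAs, CR34335 was far above the rest, with 16413 RPKM in replicate 1 and 13508 RPKM in replicate 2, a level that only CG17298 exceeded on average. RNaseMRP:RNA, the RNA part of the RNase MRP enzyme that processes ribosomal RNA, had 4359 and 4057 RPKM, and noe had 3075 and 3045 RPKM. The pseudouridylation guide snoRNA:Psi18S-1820 had 1535 and 1477 RPKM, CR40469 had 828 and 931 RPKM, and snRNA:7SK, which holds the elongation factor P-TEFb inactive, had 849 and 838 RPKM. The non-coding genes named here were close in both libraries, and CR34335 differed most among them, at 1.22-fold higher in replicate 1. Other non-coding genes spread more widely. Over 136 CR loci with at least 10 reads in total, the log2 ratio of replicate 2 to replicate 1 ran from -3.58 to 1.91. Small RNAs were otherwise poorly covered, with 160 of 282 small nucleolar RNA genes, 189 of 236 microRNA loci and 26 of 32 small nuclear RNA genes at 0 in both libraries. All listed copies of U1, U2, U5 and U6 snRNA, which every cell uses, were at 0, so a 0 for a small or repeated gene cannot be read as absence.

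Several genes that every cell uses were also listed low for reasons the files do not show. RpL21 was at 0 in both libraries and RpL5 had 3 reads and 1 read, beside a median of 432 RPKM over the 93 cytoplasmic ribosomal protein genes. Adh, the alcohol dehydrogenase of the fat body, had 9 and 7 reads, and Adhr had none. In the BDGP6 annotation 93.9% of the exonic bases of Adh and 100% of those of Adhr lie in an exon of another gene on either strand. Of the genes without a read that could be matched to that annotation, 22.6% had more than 50% of their exonic bases in another gene's exon, against 4.14% of the genes with reads. Whether reads in shared exons were counted is not given in the sources used here, and the part of such overlap in the zeros was not tested.

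The tissue lists ran from high to very low levels. The median over all genes listed was 5.33 RPKM, with 74.4% of genes at 1 RPKM or more and 713 of 15115 at 100 RPKM or more. In whole animals, fewer cells of a type and less RNA per cell cannot be told apart.

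Muscle was the strongest tissue signature. All 33 members of the muscle list reached 1 RPKM, 30 reached 100 RPKM, and the median was 603 RPKM. The list held 14.1% of all reads in replicate 1 and 13.8% in replicate 2. The defining flight muscle genes were abundant: fln, the thick filament protein flightin, had 1440 and 1268 RPKM, and TpnC4, the troponin C of stretch activation, had 309 and 286 RPKM. The lowest member was salr, a transcription factor of the spalt family, with 54 and 60 reads. The 6 actin genes, 4 of them also on the muscle list, took 4.03% and 3.93% of reads. Act5C, a cytoplasmic actin, had 1030 and 857 RPKM, and Act42A, the other cytoplasmic actin, had 175 and 200 RPKM.

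Genes of energy supply were high in parallel. All 89 members of the oxidative phosphorylation list reached 1 RPKM and 58 reached 100 RPKM, with a median of 203 RPKM and 4.15% and 3.62% of reads. The lowest were paralogs with few reads, such as CG31477 with 1 and 5 reads. All 16 glycolysis genes reached 1 RPKM with a median of 205 RPKM. Gapdh1, glyceraldehyde-3-phosphate dehydrogenase, had 863 and 749 RPKM, Ald, the aldolase, 656 and 635 RPKM, and Pglym78, phosphoglycerate mutase, 429 and 313 RPKM. ImpL3 (Ldh), lactate dehydrogenase, was the lowest, at 6.01 and 6.02 RPKM. Of the V-ATPase subunit genes, which acidify compartments and energise epithelia, 30 of 34 reached 1 RPKM, led by Vha16-1 at 1340 and 1085 RPKM.

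The translation machinery was likewise high, with 91 of 93 cytoplasmic ribosomal protein genes at 1 RPKM or more and 75 at 100 RPKM or more. RpL41 had a mean of 2008 RPKM. The low members included duplicate genes such as RpS10a, with 1 and 3 reads, and RpS5b, with 4 and 10 reads. By contrast, genes of cell division were low: the 32 members of the cell cycle and DNA replication list had a median of 3.01 RPKM, none reached 100 RPKM, and the highest were E2f, the S phase transcription factor, at 27.8 and 33.1 RPKM, stg, the mitotic Cdc25 phosphatase, at 22.1 and 31.7 RPKM, and geminin, an inhibitor of replication licensing, at 19.7 and 21.5 RPKM. Of the replication-independent H3.3 genes, His3.3B had 101 and 111 RPKM and His3.3A had 40.8 and 60.8 RPKM.

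Cuticle genes spanned the whole range of levels. The Cpr family, the main group of chitin-binding cuticle proteins, had 46 of 70 members at 1 RPKM or more, 18 at 100 RPKM or more and 16 at 0 in both libraries. Behind Cpr64Aa and Cpr49Ae came Cpr62Bc, with 1007 and 1305 RPKM. The members at 0 were Cpr5C, Cpr11A, Cpr23B, Cpr35B, Cpr47Eb, Cpr47Ec, Cpr47Ed, Cpr49Ad, Cpr57A, Cpr65Aw, Cpr65Ax1, Cpr65Ax2, Cpr65Ay, Cpr65Az, Cpr65Eb and Cpr67Fa1. In the Tweedle family of cuticle proteins only TwdlT and TwdlBeta passed 10 RPKM, 7 of 25 members passed 1 RPKM, and 11 were at 0 in both libraries. Among other cuticle genes, Acp65Aa, CG16885 (Vajk2) and Ccp84Ae led with means of 1726, 550 and 442 RPKM, whereas the larval cuticle proteins Lcp1, Lcp2, Lcp3 and Lcp4 had at most 7.14 RPKM in either library.

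Tanning of the new cuticle uses dopamine made from tyrosine. ple, tyrosine hydroxylase, the first enzyme of that route, had 2093 RPKM in replicate 1 and 1141 RPKM in replicate 2. Pu, which makes the cofactor of that enzyme, had 170 and 225 RPKM, Ddc, dopa decarboxylase, had 52.6 and 34.8 RPKM, and laccase2 (stw), the oxidase that cross-links the cuticle, had 43.6 and 47.7 RPKM. yellow itself had 6 and 20 reads and white had 2 reads and 1 read. Only white was at or below 3 reads in both libraries.

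The sensory and nervous systems were visible through some families and not through others. ninaE, the major rhodopsin of the outer photoreceptors, had 808 and 859 RPKM, and 31 of 32 phototransduction genes reached 1 RPKM. Rh3 and Rh4, the rhodopsins of the inner R7 cell, had 51.0 and 50.6 RPKM and 28.4 and 40.9 RPKM, Rh6 had 11.5 and 6.41 RPKM, and the channel trp had 62.1 and 85.1 RPKM. chp, chaoptin, and Arr2, an arrestin, followed ninaE at means of 128 and 89.9 RPKM. The eye was thus represented by its visual cascade.

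All 28 neuronal genes reached 1 RPKM, with a median of 27.9 RPKM. nrv3, a neuronal sodium pump subunit, was highest at 197 and 212 RPKM, ahead of n-syb, the synaptobrevin of synaptic vesicles, at 126 and 129 RPKM, and Syx1A, its partner syntaxin, at 85.1 and 81.3 RPKM. Syt1, the calcium sensor of release, had 48.2 and 53.2 RPKM, brp, an active zone protein, had 23.6 and 26.4 RPKM, and elav had 7.35 and 11.6 RPKM. The glial markers repo and moody had 4.41 RPKM in both libraries and 17.9 and 14.4 RPKM.

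Chemoreceptor genes were almost without reads. Of 60 odorant receptor genes 45 were at 0 in both libraries and 4 reached 1 RPKM, led by Or59b at 2.52 and 1.26 RPKM, and the shared coreceptor Orco had 0.326 and 1.71 RPKM. No gustatory receptor gene of 60 reached 1 RPKM, and 2 of 60 ionotropic receptor genes did. Odorant-binding proteins, which are secreted around sensory neurons and by other tissues, were more abundant: 28 of 51 reached 1 RPKM, led by Obp44a at 869 and 812 RPKM, Obp99b at 650 and 545 RPKM and Obp99c at 400 and 581 RPKM. At this depth low values here were not distinguishable from absence, and the part of cell number in them was not tested.

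Male reproductive tissue was clearly present. Of 44 testis genes 40 reached 1 RPKM and 17 reached 100 RPKM. Mst98Cb, Mst98Ca and ocn led, at means of 420, 340 and 332 RPKM. The other defining testis genes were Mst87F, a sperm tail protein, at 274 and 266 RPKM, betaTub85D, the germ line tubulin, at 137 and 141 RPKM, and dj, don juan, at 126 and 151 RPKM. At the low end of the list, bam, the switch from dividing to differentiating germ cells, had 1 and 0 reads, and the meiotic arrest genes aly and comr had 4 and 1 and 3 and 4 reads.

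Seminal fluid genes of the accessory gland and ejaculatory bulb were expressed, with 60 of 67 at 1 RPKM or more. After PebIII and Mst57Db came Acp95EF, with 1169 and 501 RPKM, all of whose exonic bases (100%) overlap another gene in the annotation, so that its level is uncertain. Acp70A, the sex peptide, had 530 and 199 RPKM, Acp36DE, which acts in sperm storage, had 88.6 and 56.1 RPKM, and Acp26Aa, ovulin, had 59.0 and 31.5 RPKM. CG15841, CG6555, Spn77Bc and Acp54A1 were at 0. All of the named members with reads were lower in replicate 2.

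The labelled sex was checked against genes of dosage compensation and the ovary. roX1 and roX2, the male RNAs of the complex that doubles X transcription, had 175 and 211 RPKM and 26.0 and 30.5 RPKM. The Y-linked fertility genes kl-3 and kl-5 were low but present, at 1.29 and 1.54 RPKM and 1.76 and 2.12 RPKM. The yolk gene Yp1 and the oocyte and eggshell genes osk, Cp36 and Vm26Aa had no read in either library, and 13 of 21 eggshell and oocyte genes were at 0. Of these 21 genes 4 reached 1 RPKM, and the highest was grk, which encodes a TGF-alpha ligand known from the oocyte, at 16.1 and 17.9 RPKM. Male RNAs were present. Of the ovary genes named here only grk had reads, but other members of that list, not named here, had reads too.

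Larval tissues differed among themselves. Storage proteins of the larval fat body were still abundant, with Lsp2 at 1370 and 1781 RPKM, Fbp2 at 769 and 865 RPKM, Lsp1beta at 575 and 573 RPKM, Fbp1, the receptor for storage proteins, at 503 and 511 RPKM, and the lipophorin gene Rfabg (apolpp) at 153 and 215 RPKM. In the annotation 84.6% of the exonic bases of Lsp2 overlap another gene, so its level is uncertain. Glue genes of the larval salivary gland were at or near 0, with Sgs3, Sgs7 and Sgs8 at 0 and 19 of 22 members of that list without a read. Digestive enzymes were low, with 21 of 52 at 1 RPKM or more and a median of 0.310 RPKM that became 0.132 RPKM without replicate 1 and 0 without replicate 2, although Mal-A5, a maltase, had 61.6 and 59.6 RPKM. The hemocyte genes Hml and nimC1 had 29.3 and 19.1 RPKM and 0.543 and 0.816 RPKM, while the basement membrane collagens Cg25C (Col4a1) and vkg had means of 184 and 127 RPKM. Among antimicrobial peptide genes only Drs, drosomycin, and 3 others passed 10 RPKM. The median of that list was 0.943 RPKM over the mean of both libraries, and 1.57 RPKM without replicate 1 and 1.77 RPKM without replicate 2.

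**Figure D2:**
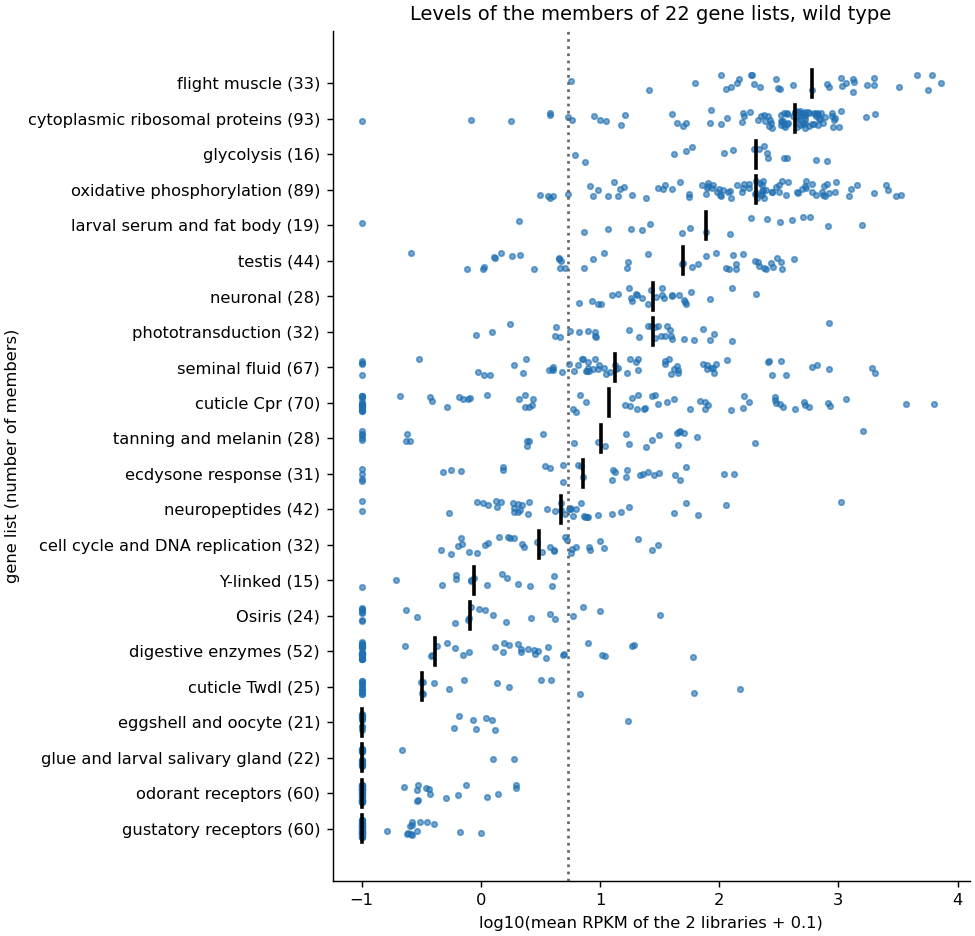
Each point is the mean RPKM of 1 gene over the 2 wild type libraries, on a log10 scale after adding 0.1, in 22 gene lists with the number of members in brackets. Black bars mark list medians, which run from 603 RPKM for the muscle list (labelled flight muscle) to 0 for glue, eggshell and receptor genes. The dotted line marks 5.33 RPKM, the median over all genes.

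Genes of the ecdysone cascade were expressed at moderate levels. ftz-f1, the competence factor that follows a declining pulse, was highest with 132 and 137 RPKM, ahead of Eip74EF at 119 and 98.3 RPKM and Eip75B at 62.8 and 41.5 RPKM. EcR, the hormone receptor, had 20.0 and 30.7 RPKM, and its partner usp had 18.8 and 13.8 RPKM. Of the enzymes that make ecdysone, phm, dib, spo and nvd had no read in either library. Of the peptides that time eclosion and tanning, ETH had 4 and 16 reads, Eh had none, and burs had 4.82 and 6.33 RPKM. Of the other peptide genes, Nplp2, Nplp4 and CCHa2 were the most abundant, at means of 1047, 113 and 65.7 RPKM.

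Other families ranged widely. Of 35 glutathione S-transferase genes 31 reached 1 RPKM, led by GstS1, which is abundant in flight muscle, at 1708 and 1638 RPKM, GstD1 at 291 and 325 RPKM and GstE12 at 326 and 281 RPKM. Of 82 cytochrome P450 genes 65 reached 1 RPKM but only Cyp4g1, which makes cuticular hydrocarbons, passed 100 RPKM, at 474 and 483 RPKM. The heat shock list was led by Hsc70-4, a constitutive chaperone, at 537 and 500 RPKM, l(2)efl at 134 and 170 RPKM and Hsp83 at 132 and 121 RPKM, while Hsp22, Hsp70Aa and Hsp70Ab were at 0. Among chitin genes, Idgf4, Gasp and CG5210 (Idgf6) led at means of 554, 504 and 249 RPKM.

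Regulators were lower. All 8 Hox genes reached 1 RPKM, and abd-A was highest at 9.29 and 9.91 RPKM, with a list median of 2.504 RPKM. All 11 clock genes reached 1 RPKM with a median of 10.3 RPKM, and the core genes tim and per had 9.33 and 11.2 RPKM and 5.55 and 5.32 RPKM. The 10 nicotinic receptor subunit genes, whose products receive acetylcholine at synapses, all reached 1 RPKM with a median of 8.65 RPKM. Of 19 eye pigment genes 16 reached 1 RPKM, led by se at 222 and 254 RPKM and pr at 165 and 167 RPKM, both enzymes of pteridine pigment synthesis. lt and cn were at 0, and 68.7% of the exonic bases of cn overlap another gene.

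By chromosome arm, levels of protein-coding genes were similar on the X and the large autosomal arms. The median over all coding genes was 5.89 RPKM on X and 6.29 RPKM on 2L, 2R, 3L and 3R together, a ratio of 0.936, and 79.2% of X-linked genes against 78.01% of autosomal genes reached 1 RPKM. Among genes at 1 RPKM or more the ratio was 0.884. Chromosome 4 stood higher, with 75 of 78 genes at 1 RPKM or more and a median of 14.1 RPKM. On Y, 10 of 18 genes reached 1 RPKM and none reached 100 RPKM. No test was made between arms, since genes of an arm are not replicates.

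The replicates were next compared gene by gene, with an exact binomial test on whole reads, for 10222 genes with at least 10 reads in both libraries together. A gene was called at a Benjamini-Hochberg adjusted p below 0.01 and a difference of more than 2-fold in reads scaled to the total of each library, called scaled reads below. Such a test compares these 2 libraries and covers counting error only. It called 149 genes, 1.46% of those tested, of which 112 were higher in replicate 1 (1.10%) and 37 were higher in replicate 2 (0.362%). Over all genes tested, called or not, 5778 had more scaled reads in replicate 2 and 4444 had fewer, with a median log2 difference of 0.06. Median ratio scaling shifts all genes by 0.05, so the balance of these 2 counts depends on the scaling. Without a threshold on the fold, 528 genes (5.17%) had an adjusted p below 0.01, and the libraries are therefore not 1 library listed in duplicate. The typical gene was close: the median absolute log2 difference was 0.15 among the 643 genes with at least 1000 reads and 0.45 among the 3829 genes with 10 to 50 reads, of which 17.3% differed by more than 2-fold but only 22 were called.

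**Figure D3:**
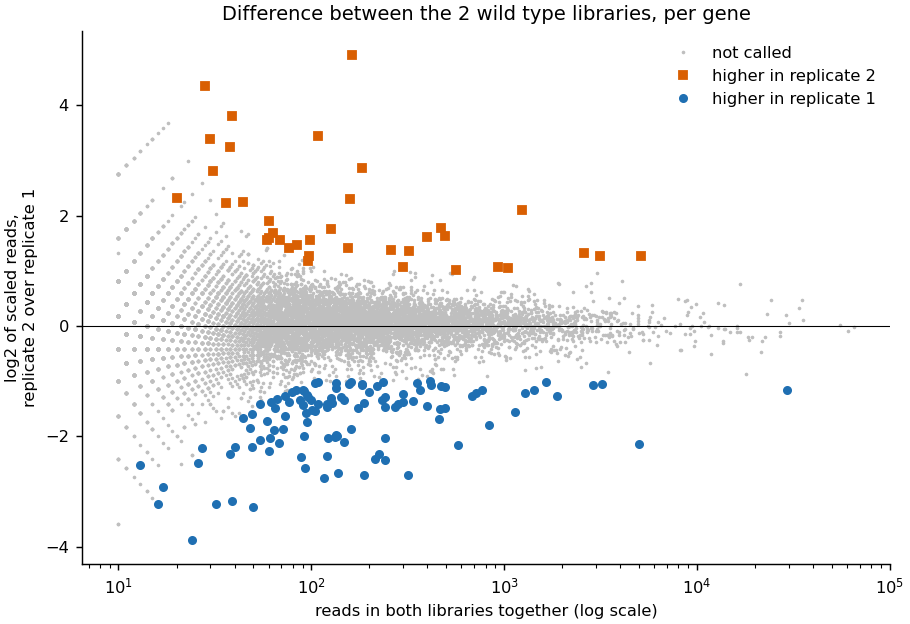
Each point is a gene with at least 10 reads, placed by its reads in both libraries (log axis) and by the log2 ratio of scaled reads in replicate 2 over replicate 1. The 112 blue circles are genes called higher in replicate 1 and the 37 orange squares are genes called higher in replicate 2; genes that were not called are grey.

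Of the 37 genes higher in replicate 2, 7 encode cuticle proteins and 4 belong to the Osiris family, and 5 lie in a cluster on 3L described below. Osi15, of the Osiris family of insect proteins, had 4 reads in replicate 1 and 159 in replicate 2, a 29.9-fold difference in scaled reads with a 95% exact interval of 11.4 to 111. CG13048, on 3L, had 7 and 101 reads, 10.8-fold (5.07 to 27.6). TwdlBeta had 17 and 165 reads, 7.29-fold (4.42 to 12.8), and CG13049 had 21 and 138 reads, 4.94-fold (3.11 to 8.23). In each of these genes the intervals lie well above 1.

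Cpr30B, a cuticle protein, had 163 RPKM in replicate 1 and 700 RPKM in replicate 2, a 4.31-fold difference (3.68 to 5.07, adjusted p = 2.89e-97 by the exact binomial test). CG17127 had 10 and 50 reads, CG14095 had 84 and 384, CG13042 had 23 and 104, Cpr78Cc had 12 and 51, and CG2150 had 96 and 397, all between 3.11-fold and 3.76-fold higher. These 10 genes had the largest differences in that direction among called genes with at least 50 reads.

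Over the cuticle lists, 47 of 58 tested members had more scaled reads in replicate 2 and 11 had fewer, with a median log2 difference of 0.59 against 0.06 over all genes tested. Of the 58, 9 were called (15.5%, against 1.46% of all genes tested), 7 higher in replicate 2 and 2 higher in replicate 1. The share of all reads on the Cpr genes was 1.65% in replicate 1 and 2.41% in replicate 2. Called higher in replicate 2 were Cpr30F, Cpr30B, Cpr78Cc, Cpr64Ab, TwdlT, TwdlBeta and CG16886 (Vajk1). Cpr65Au, with 81 and 39 reads, and Cpr67Fb, with 57 and 34 reads, were called in the other direction. More than 50% of the exonic bases of each overlap another gene, and the part of that overlap in these ratios was not tested. All 8 Osiris genes with at least 10 reads in both libraries together were higher in replicate 2 and 4 were called (50%, against 1.46% of all genes tested). The called members passed that minimum of reads only through replicate 2, and the list was chosen after the data were seen. Their counts are therefore a description and not a test of the family. Of the 4 called genes, Osi18 and Osi20 had no read in replicate 1 and 20 and 38 reads in replicate 2. With a floor of 3 reads put in place of none, the ratios were 5.01-fold and 9.52-fold. The exact intervals have lower bounds of 3.71-fold and 7.37-fold. Osi19 had 1 and 27 reads. Osi18, Osi19 and Osi20 are neighbours on 3R.

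Seminal fluid genes differed in the other direction. Of 45 tested members 41 had fewer scaled reads in replicate 2, with a median log2 difference of -0.66. Of the 45, 11 were called (24.4%, against 1.46% of all genes tested), all of them higher in replicate 1. Sfp87B had 97 and 19 reads, 6.80-fold higher in replicate 1 (4.13 to 11.8), and Sfp60F had 96 and 25 reads, 5.11-fold (3.26 to 8.29). Acp70A was 2.66-fold higher in replicate 1 (2.07 to 3.45), and Mst57Db 2.33-fold (2.08 to 2.62). The ejaculatory bulb gene PebII had 22 reads in replicate 1 and 2 in replicate 2, a ratio of 14.6 with an interval of 3.60 to 128. Of 38 tested testis genes none was called, beside 1.46% of all genes tested, and their median was 0.14, although 2 had an adjusted p below 0.01 with a smaller fold. The cuticle and seminal fluid lists were chosen with earlier results of these libraries known.

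With Sfp87B and Sfp60F, 8 further genes had the largest differences toward replicate 1 among called genes with at least 50 reads. CG13082 had 44 and 6 reads, 9.76-fold (4.14 to 28.03). CG15617 had 264 and 54 reads, 6.51-fold (4.84 to 8.89), and CG4725 (Nepl13), a neprilysin-like protein, had 156 and 32 reads, 6.49-fold. Kr-h1, a zinc finger factor of the juvenile hormone response, had 114 and 24 reads, 6.32-fold (4.04 to 10.3), although 78.6% of its exonic bases overlap another gene in the annotation. CG6910 (Miox), myo-inositol oxygenase, had 76 and 17 reads, CG16772 had 194 and 48, Peb, an ejaculatory bulb protein, had 171 and 43, and CG2650 (dyw) had 70 and 18, between 5.18-fold and 5.95-fold higher in replicate 1.

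**Figure D4:**
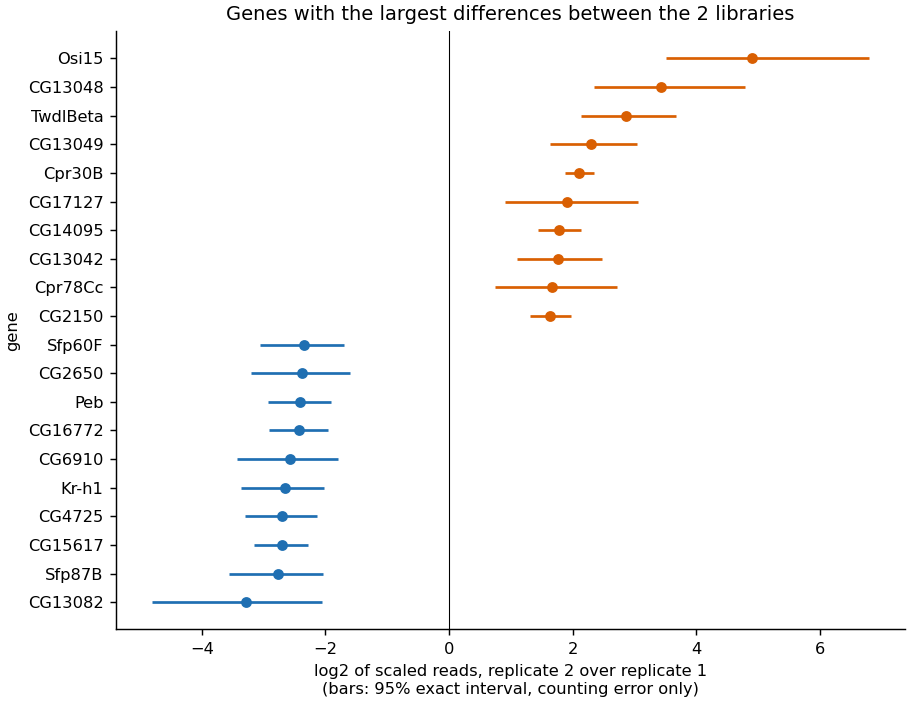
Log2 ratio of scaled reads in replicate 2 over replicate 1 with 95% exact intervals (counting error only) for the 10 called genes with the largest difference in each direction among those with at least 50 reads. Osi15 lies farthest to the right, at 4.90, and CG13082 farthest to the left, at -3.29.

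Hormone-responsive regulators were also among the called genes. Blimp-1, an ecdysone-induced repressor that times ftz-f1, had 176 and 47 reads, 4.98-fold higher in replicate 1 (3.59 to 7.03). Hr46 (Hr3), an orphan nuclear receptor of the cascade, had 278 and 762 reads, 2.06-fold higher in replicate 2 (1.79 to 2.37), with 82.7% of its exonic bases overlapping another gene. Below the 2-fold threshold, EcR was 1.54-fold higher in replicate 2 (1.34 to 1.77) and Hr4 1.67-fold (1.47 to 1.90), while Eip75B was 1.51-fold higher in replicate 1 (1.40 to 1.64). ftz-f1 had a ratio of 1.04 (0.975 to 1.10) and Eip93F of 1.02. Over the 23 tested genes of that list 3 were called, beside 1.46% of all genes tested, and the median was -0.08.

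The tanning enzyme ple was 1.83-fold higher in replicate 1 (1.78 to 1.89), below the 2-fold threshold, and Ddc was 1.51-fold higher (1.25 to 1.83). Pu was 1.33-fold higher in replicate 2 (1.20 to 1.47). Of 20 tested tanning and melanin genes none was called, 12 were higher and 8 lower in replicate 2, and the median log2 difference was 0.05. CG17298, the most abundant coding transcript, was called at 2.24-fold higher in replicate 1 (2.19 to 2.29). CG17386 (Achl) had 3842 and 1160 reads, 4.41-fold (4.13 to 4.71), and Mmp1, a matrix metalloproteinase, had 604 and 231 reads, 3.48-fold higher in replicate 1, both named after their values were seen. Of the 64 genes at 1000 RPKM or more 2 were called, CG17298 and Mst57Db, beside 1.46% of all genes tested.

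Neighbours of CG13067 on 3L, the genes with symbols from CG13040 to CG13069, were grouped after their values were seen and are given as a description. CG13048, CG13049, CG13047, CG13042 and CG13062 were called higher in replicate 2, 5 of 19 tested (26.3%, against 1.46% of all genes tested). Nplp3, next to CG13062 in the annotation but outside this range of symbols, was called higher in replicate 1, with 65 and 34 reads. CG13067 itself was lower in replicate 2, at 0.719 times its level in replicate 1 (0.700 to 0.739). CG13051 was 1.20-fold higher in replicate 2 (1.13 to 1.26). Members of the same cluster thus differed between the libraries in opposite directions. Over the genome, 12 pairs of called coding genes were next to each other in the annotation, and in 10 of them both genes differed in the same direction. The pairs hold 20 genes, so some share a gene. Of all 149 calls 112 were in 1 direction, and whether neighbours match more often than other called genes was not tested.

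In some tissue lists no difference passed both thresholds. Other lists held calls, such as 11 of 45 tested seminal fluid genes and 2 of 58 tested cytochrome P450 genes. The absence of calls described next therefore holds only for the lists named. The muscle, ribosomal protein, oxidative phosphorylation, testis, phototransduction and neuronal lists were put together, and each of them held no call. Their 306 tested members thus held none through the choice of lists, beside 1.46% of all genes tested. This is a description and not a test of stability. The median log2 difference of these members was -0.04. An adjusted p below 0.01 with less than a 2-fold difference was found for 40 of them, 13.1% against 5.17% of all genes tested. That share depends on reads: it was 0.575% of genes with 10 to 50 reads and 35.6% of genes with at least 1000. The lists were not matched to all genes for reads, so these 2 shares cannot be compared directly. Within these lists, 70 of 88 tested oxidative phosphorylation genes were lower in replicate 2, with a median of -0.19. Of 33 muscle genes 26 were lower, with a median of -0.09. Of 8 tested glial genes 4 were higher and 4 lower in replicate 2, with a median log2 difference of 0.0006. Among the lower ones Gs2, glutamine synthetase, was 2.09-fold higher in replicate 1 (1.94 to 2.25), and the glutamate transporter Eaat1 was 1.87-fold higher (1.63 to 2.16) and not called. The animals of both libraries came from the same window of 96 to 108 h, and where within it each pool lay is not given in the sources used here. The part of stage in these differences was not tested.

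**Figure D5:**
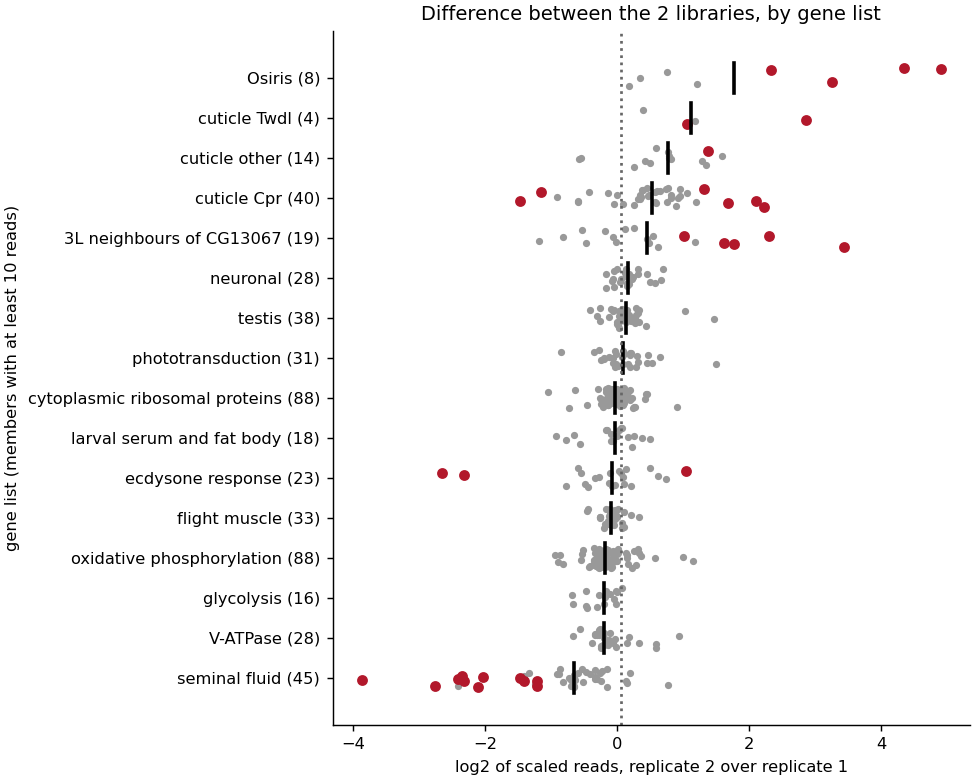
Log2 ratio of scaled reads in replicate 2 over replicate 1 for members with at least 10 reads in 16 gene lists, with the number of members tested in brackets, called genes in red and list medians as black bars. Medians run from 1.77 for Osiris genes to -0.66 for seminal fluid genes, and the dotted line marks 0.06, the median over all genes tested.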

How the data were processed

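The 2 yw libraries were taken from the deposited RPKM table. The authors sequenced NuGEN Ovation libraries on a MiSeq, aligned reads with STAR 2.5.2b to dm3 modified to hold 1 copy of each replication-dependent histone gene, counted them per gene with Subread 1.28.1, and computed the deposited RPKM values. How strand, multi-mapping and shared exons were treated is not given in the sources used here. The deposited comparison table holds fold changes and p-values of mutant against wild type from DESeq2 1.18.1, which were not used. Its mean of size-factor-scaled counts, a deposited score over all libraries, served only to set the scale on which RPKM values become whole reads; 100% of values above 0 came out whole within 0.01 reads.

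Symbols were matched to BDGP6 genes for names, arms and exon overlap (14871 of 15115). Protein-coding means all genes without a non-coding symbol and, where matched, without a biotype other than protein-coding in that annotation. Means are over 2 libraries. Reads were compared with a two-sided exact binomial test (scipy 1.17.1, Python 3.11.15), Benjamini-Hochberg over all genes with at least 10 reads, and exact Clopper-Pearson intervals at 95%. The test was tried on simulated data first. Named genes are the 30 highest coding genes, the 3 highest, defining and zero members of each list (for long lists, counts of zeros; some members are not reported here), and the 10 largest called differences each way with at least 50 reads; others were named after their values were seen. Members and lists were chosen with earlier results of these data known. Alternatives were other thresholds, scalings and leaving out each replicate. Mutant libraries were not analysed here.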

Additional observations from a re-analysis of the deposited data

How the results depend on the processing

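The count of genes at 1 RPKM or more was 11251, and 12017 at a threshold of 0.5 RPKM and 7758 at 5 RPKM; it was 11071 to 11184 on a single library. The share of reads in the top 100 genes was 34.0% to 34.9% on a single library. Of the 30 coding genes highest by RPKM, 27 to 28 were shared when 1 library was left out and 15 when genes were ranked by reads. The 149 calls between replicates became 158 with median ratio scaling, which shifts all genes by 0.05 on the log2 scale, and 131 to 210 under other minimums and an adjusted p of 0.05. With a difference of log2(RPKM + 1) above 1 and no test, 852 genes passed (445 higher in replicate 1 and 407 in replicate 2), and with log2(RPKM + 0.1), 1332 genes passed (645 and 687), since genes with few reads then count. Leaving out the seminal fluid, cuticle, Osiris and 3L neighbour lists, chosen after seeing the data, left 120 calls. The 20 named genes, chosen at 50 reads or more, kept their direction and their call with median ratio scaling and with no minimum of reads. Over members with at least 10 reads only, 41 of 52 list medians moved by more than the spread between the libraries. The ratio of X to autosomal medians was 0.936, and 0.884 among genes at 1 RPKM or more; it was 0.943 to 0.954 on a single library. No paired analysis was possible because only 1 group was described. Depth limits genes with few reads, and with 2 libraries no variance between animals can be given.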
